A study of Mus musculus with 18 samples.

Results

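The 37 genes described here are those whose symbol begins with mt-, which are the genes of the mouse mitochondrial genome, out of 55487 genes in the deposited count table. They comprise 13 protein-coding genes, 2 ribosomal RNA (rRNA) genes and 22 transfer RNA (tRNA) genes. The proteins are 7 subunits of complex I, 1 of complex III, 3 of complex IV and 2 of ATP synthase. Counts were high enough to be tested for 17 of the 37 genes, namely all 13 protein genes, both rRNA genes and the tRNA genes mt-Tw and mt-Tt. The other 20 are all tRNA genes.

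The mitochondrial genome is a small circle of DNA present in many copies per cell. A nuclear-encoded RNA polymerase, Polrmt, transcribes each strand into long precursors, and excision of the tRNAs that lie between the other genes releases the messenger and ribosomal RNAs. The protein genes encode core subunits of the respiratory chain and ATP synthase, whose other subunits are nuclear-encoded, and in Leydig cells the first step of testosterone synthesis takes place inside mitochondria.

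Poly(A) RNA was measured in 18 libraries of primary mouse Leydig cells, which make the androgens of the testis. Transfection was with a non-targeting control (siNC) or with siprdx1, an siRNA that targets Prdx1, the gene of the peroxide-removing enzyme peroxiredoxin 1. Within each siRNA, one group received no peroxide, another 200 µM hydrogen peroxide (H2O2) over 30 min, and the last H2O2 with 5 µM fluvastatin (FV) added afterwards over 6 h. Each of the 6 groups has 3 libraries, labelled as biological replicates. Groups without FV are recorded with 0.1% DMSO during the 6 h, and none is recorded for the FV groups, so the effects of FV and of vehicle cannot be told apart. There was no group with FV but without H2O2. All cells had been transfected, and the labels do not say whether replicates came from separate animals, so p-values measure the spread between these cultures.

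Library totals ranged from 15201530 to 23898435 counts, and the 37 genes took 217451 to 346848 of them. Levels below are CPM, which put each library's counts on one scale by TMM, a normalization for library composition. Prdx1 itself was at 1279 to 1690 CPM in siNC libraries and at 426 to 576 CPM in siprdx1 libraries. Of the defining Leydig markers, Cyp11a1 averaged 712 CPM, Star 286 CPM and Insl3 50.4 CPM, while Cyp17a1 and Hsd17b3, enzymes of the later steps of androgen synthesis, averaged 0.0318 and 0.067 CPM. Markers of other cells were abundant: in single libraries 16 macrophage markers summed to 8777 to 11198 CPM and 7 fibroblast markers to 15020 to 19620 CPM, against 1107 to 1687 CPM for 10 Leydig markers. In such bulk RNA, fewer cells of a type and less RNA per cell cannot be told apart.

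The protein genes differed widely in level, here compared as CPM per kilobase of gene (CPM/kb) averaged over the 18 libraries. Among complex I subunits mt-Nd1 stood at 1472, mt-Nd2 at 748, mt-Nd5 at 737 and mt-Nd4 at 470 CPM/kb, whereas mt-Nd6 stood at 31.3, mt-Nd3 at 4.76 and mt-Nd4l at 4.57 CPM/kb. The complex III gene mt-Cytb, which encodes cytochrome b, reached 1812 CPM/kb. Of the complex IV genes, mt-Co1, encoding the catalytic subunit, was the highest member at 4245 CPM/kb, and mt-Co2 and mt-Co3 were at 44.7 and 19.2 CPM/kb. The ATP synthase genes mt-Atp6 and mt-Atp8 were at 13.6 and 5.76 CPM/kb. The rRNAs of the small and large mitochondrial ribosomal subunits, mt-Rnr1 and mt-Rnr2, were at 140 and 107 CPM/kb in these poly(A)-selected libraries. As a share of all mitochondrial counts, mt-Co1 held 50%, mt-Cytb 15.6%, mt-Nd1 10.6%, mt-Nd5 10.1%, mt-Nd2 5.85% and mt-Nd4 4.88%.

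**Figure D1:**
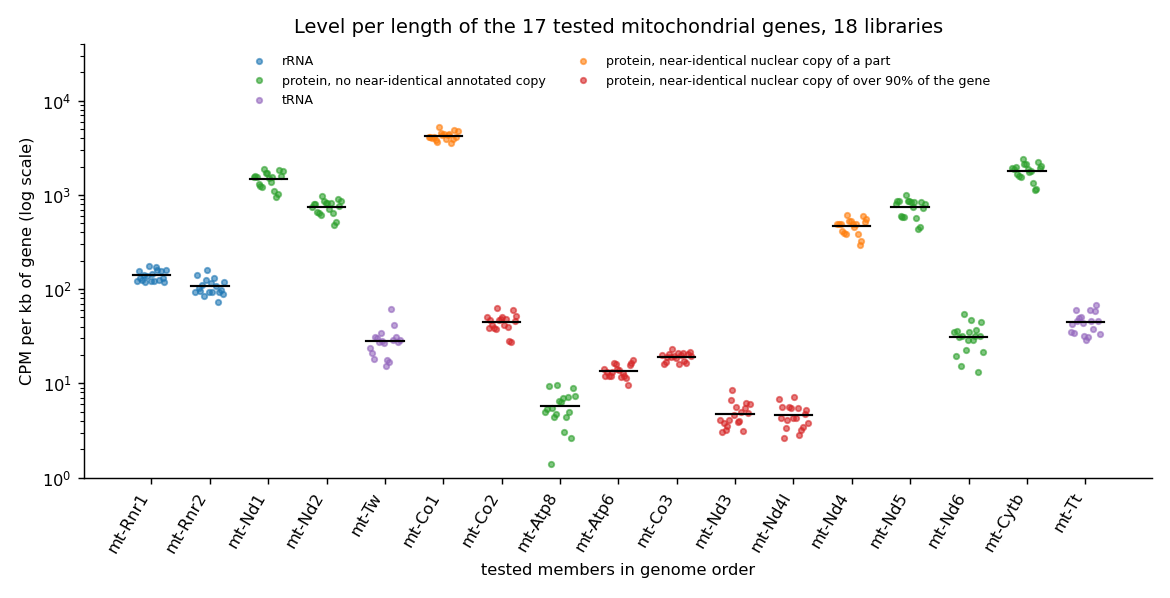
Mean level of each tested mitochondrial gene per kilobase of gene (CPM/kb, log axis, mean of 18 libraries), coloured by whether an annotated nuclear copy of at least 99% identity covers it. The 5 genes covered over more than 90% of their length lie between 4.57 and 44.7 CPM/kb, and mt-Co1 and mt-Nd4, covered in part, at 4245 and 470 CPM/kb. The mt-Atp8 gene is coloured as having no copy, although its last 43 bases lie within the copy of mt-Atp6.

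Most of the low protein genes lie side by side, in a stretch with a near-identical copy in the nuclear genome. A stretch of chromosome 1 (chr1:24611535-24616197, minus strand, GRCm38) of 4663 bases carries 7 annotated pseudogenes that match mt-Co1, mt-Co2, mt-Atp6, mt-Co3, mt-Nd3, mt-Nd4l and mt-Nd4 at 99.7% to 100% identity. Of these 7 copies, 5 have no mismatch and 2 have 1 mismatch each. The copy covers mt-Co2, mt-Atp6, mt-Co3, mt-Nd3 and mt-Nd4l over more than 90% of their length. It covers 31.3% of mt-Co1 and 63.6% of mt-Nd4. No pseudogene is annotated for mt-Atp8, which lies between mt-Co2 and mt-Atp6. Its last 43 bases are also the first of mt-Atp6 and so lie within the copy of that gene. On chromosome 1, 233 bases separate the copies of mt-Co2 and mt-Atp6, and whether these hold a copy of the rest of mt-Atp8 was not searched. The 4 protein genes mt-Nd1, mt-Nd2, mt-Nd5 and mt-Cytb have no such copy and lay at 737 to 1812 CPM/kb. A read within an identical stretch matches both places equally, and how such reads were counted is not given in the sources used here. The levels of the copied genes are therefore uncertain, and the part of the copies in them was not tested.

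The sequences that mark this copy follow, 5′ to 3′ on the member's coding strand, from the GENCODE M21 transcripts of GRCm38 (mm10). The first pair shows the edges of the copied stretch in mt-Co1 (chrM:6360-6419) and mt-Nd4 (chrM:11013-11072), with the copied bases in capitals.
mt-Co1: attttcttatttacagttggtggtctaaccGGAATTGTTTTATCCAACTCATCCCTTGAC
mt-Nd4: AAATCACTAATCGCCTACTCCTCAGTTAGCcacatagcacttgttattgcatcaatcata
The next lines show where a member and its copy differ, with the differing base in capitals: A1066T between mt-Co1 and Gm29216, and T3C between mt-Nd3 and Gm28438, the member's base first and positions counted from 1 at the member's 5′ end.
mt-Co1: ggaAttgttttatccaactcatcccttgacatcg
Gm29216: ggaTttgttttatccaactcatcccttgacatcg
mt-Nd3: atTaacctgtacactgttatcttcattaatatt
Gm28438: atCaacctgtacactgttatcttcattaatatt
The first 60 bases of mt-Co2 stand for the copies without a mismatch, since they are also those of Gm28661.
mt-Co2: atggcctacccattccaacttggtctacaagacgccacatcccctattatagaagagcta

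The copies were themselves listed with counts. Averaged over the 18 libraries, Gm10925 (the copy of mt-Atp6) was at 16.9 CPM, Gm28437 (mt-Co3) at 13.1, Gm28661 (mt-Co2) at 11.8, Gm29216 (mt-Co1) at 10.2, Gm28439 (mt-Nd4) at 4.04, Gm10222 (mt-Nd4l) at 1.41 and Gm28438 (mt-Nd3) at 1.19 CPM. The 7 copies thus lay at 3.45 to 24.9 CPM/kb, against 4.57 to 44.7 CPM/kb for the members that are copied nearly whole. A more diverged copy of mt-Co1 on chromosome 2, Gm13340, was at 1.81 CPM.

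Members also share bases with one another. The reading frames of both ATP synthase genes overlap by 43 bases, and those of mt-Nd4l and mt-Nd4 by 7 bases. Both overlaps, in capitals below, lie on chrM:7907-7989 and chrM:10147-10193.
mt-Atp8 into mt-Atp6: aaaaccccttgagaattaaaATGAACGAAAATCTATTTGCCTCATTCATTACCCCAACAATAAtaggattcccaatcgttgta
mt-Nd4l into mt-Nd4: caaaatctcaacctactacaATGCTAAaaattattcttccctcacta
The complex I gene mt-Nd6 (chrM:13552-14070) is read from the opposite strand and overlaps mt-Nd5 (chrM:11742-13565) by 14 bases. The library kit keeps strand, but whether counting used strand is not given in the sources used here, so the mt-Nd6 level is uncertain. Its values also scattered widely, with a median coefficient of variation within groups of 36%, against 5.63% for mt-Nd1.

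Most tRNA genes had few or no counts in these poly(A)-selected libraries. How well such libraries capture tRNAs was not tested, so these counts are no measure of tRNA levels in the cells. Of the 20 untested ones, 10 had no count in any library, which allows up to 0.00798 CPM over all libraries as a matter of counting error only. The highest single count among the others was 8, for mt-Ti. Together the 20 genes held 127 of the 4921605 mitochondrial counts. The 2 tested tRNA genes lie directly downstream of a protein gene on its strand: mt-Tw, the tryptophan tRNA, shares 2 bases with the end of mt-Nd2, and mt-Tt, the threonine tRNA, starts where mt-Cytb ends. They held 713 and 1114 counts over the 18 libraries. Of the 22 tRNA genes, 7 follow a protein gene in this way and held 0 to 1114 counts each, 4 of them none, while the other 15 held 0 to 21 counts each. Both junctions are printed with the tRNA in capitals (chrM:4922-5016 and chrM:15259-15355), because mt-Tw is the member that moved against the others below. The mt-Cytb gene ends on a bare T, and its stop codon is completed by the poly(A) tail.
mt-Nd2 into mt-Tw: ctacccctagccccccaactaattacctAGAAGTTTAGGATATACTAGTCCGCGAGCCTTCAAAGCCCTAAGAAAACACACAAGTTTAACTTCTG
mt-Cytb into mt-Tt: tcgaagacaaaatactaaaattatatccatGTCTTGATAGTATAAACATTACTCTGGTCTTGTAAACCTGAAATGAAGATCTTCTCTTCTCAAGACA

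All 37 genes together held a larger share of counts without H2O2 than with H2O2 alone. The share was 1.36%, 1.41% and 1.37% in siNC libraries and 1.46%, 1.29% and 1.45% in siprdx1 libraries. After H2O2 it was 1.23%, 1.17% and 1.13% in siNC and 1.24%, 0.988% and 1.08% in siprdx1, so neither pair of groups overlapped. After H2O2 and FV it was 1.58%, 1.39% and 1.34% in siNC and 1.48%, 1.27% and 1.42% in siprdx1, above every H2O2 library of the same siRNA and overlapping the untreated ones. As a share of the TMM-scaled library size, on which the CPM values rest, siNC with H2O2 and FV was at 1.43% to 1.67% and no longer overlapped siNC at 1.34% to 1.36%, while in siprdx1 1.34% to 1.56% still overlapped 1.24% to 1.4%. The mean ± SD (n = 3) of siprdx1 was 1.4% ± 0.0949 without H2O2 and 1.1% ± 0.126 with H2O2 alone.

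**Figure D2:**
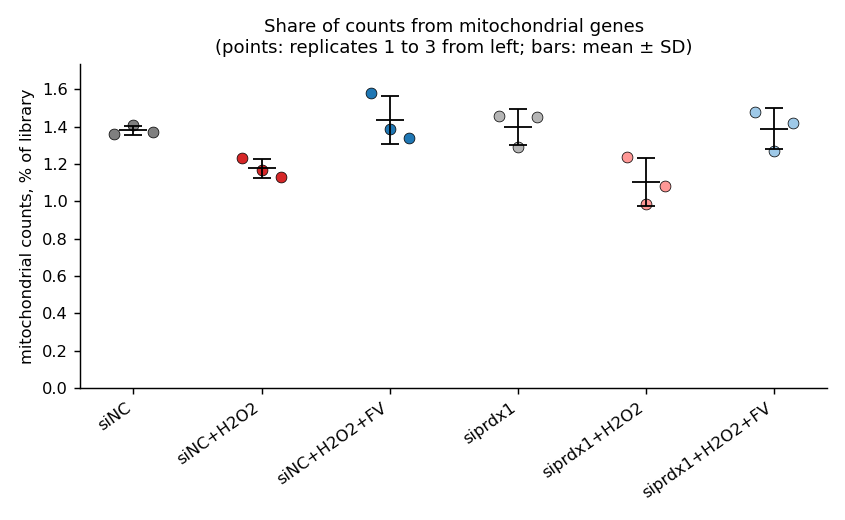
Share of each library's counts from the 37 mitochondrial genes (percent of counts) in the 6 groups, with points for libraries and bars for mean ± SD. In both siRNA arms the H2O2 libraries lie below the untreated and the FV libraries of the same arm.

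The first comparison asked what H2O2 did to mitochondrial transcripts in control cells. Of the complex I messages 4 of 7 fell, as did the complex III message, while the most abundant message, mt-Co1 of complex IV, did not pass. Within complex I, mt-Nd5 fell by 0.51 on the log2 scale, mt-Nd1 by 0.32, mt-Nd4 by 0.31 and mt-Nd2 by 0.29. In complex III, mt-Cytb fell by 0.28. A decrease passed the test (edgeR, adjusted p below 0.05) for 5 of the 17 tested genes and an increase for none. Over all 16432 tested genes, 4.59% passed as lower and 2.36% as higher.

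The subunit gene mt-Nd5 was at 1474, 1571 and 1561 CPM in siNC and at 1100, 1074 and 1052 CPM in siNC+H2O2, a log2 difference of -0.51 ± 0.08 (SE; adjusted p = 0.000403). The groups lay far apart. Another complex I gene, mt-Nd1, was at 1476, 1529 and 1501 CPM and then at 1261, 1193 and 1158 CPM (-0.32 ± 0.06, adjusted p = 0.00297). For mt-Nd2 the levels were 773, 840 and 829 CPM and then 689, 660 and 642 CPM (-0.29 ± 0.09, adjusted p = 0.0451). These groups did not overlap either. The mt-Nd4 gene, of which only the end has no nuclear copy, went from 676, 683 and 683 CPM to 574, 543 and 534 CPM (-0.31 ± 0.08, adjusted p = 0.0205). Cytochrome b message, mt-Cytb, was at 2232, 2180 and 2263 CPM and after H2O2 at 1910, 1800 and 1789 CPM (-0.28 ± 0.07, adjusted p = 0.013). All H2O2 libraries lay below all untreated ones for these 5 genes, which passed the test on the same libraries, so this is no separate evidence.

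By contrast mt-Co1 was at 6427, 6378 and 6211 CPM in siNC and at 6345, 5864 and 5697 CPM in siNC+H2O2, and these ranges overlapped (-0.09 ± 0.08, adjusted p = 0.588). The other complex IV genes, both uncertain because of their copies, had log2 differences of -0.21 ± 0.14 for mt-Co2 and 0.14 ± 0.12 for mt-Co3, and neither passed. ATP synthase genes gave -0.06 ± 0.11 for mt-Atp6 and -0.78 ± 0.45 for mt-Atp8, the latter from 5 to 45 counts per library. Of the low complex I genes, mt-Nd4l had -0.69 ± 0.26 (adjusted p = 0.119), mt-Nd6 -0.21 ± 0.45 and mt-Nd3 0.01 ± 0.28. The rRNAs did not pass, with -0.08 ± 0.16 for mt-Rnr1 and -0.22 ± 0.22 for mt-Rnr2. The median over the 17 genes was -0.21, against 0.01 over all tested genes. The 5 calls fell to 2 without siNC replicate 3 or without siNC+H2O2 replicate 2 or 3, and to 3 without siNC replicate 2, while mt-Nd5 and mt-Nd1 passed without any single library. The mt-Nd2 call was lost in 5 of these 6 fits and with RLE size factors, that of mt-Nd4 in 4 and that of mt-Cytb in 3. Beside this, summed macrophage markers were at 9201 to 10110 CPM in siNC and 10479 to 11198 CPM in siNC+H2O2, with 2 of 16 markers higher. Fibroblast markers were at 17820 to 18849 and 18924 to 19620 CPM, with none of 6 tested higher or lower, and of 4 tested Sertoli cell markers 1 was higher and 1 lower. The part of these shifts in the result was not tested.

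The same question was asked in Prdx1-depleted cells, whose libraries are all different ones. There too, 4 of 7 complex I messages and mt-Cytb fell and mt-Co1 did not pass, and in addition mt-Co2 fell and mt-Tw rose. A decrease passed for 6 of the 17 genes, beside 5.39% of all genes, and an increase for 1, beside 2.48%. The gene mt-Nd5 was at 1527, 1370 and 1522 CPM in siprdx1 and at 1044, 785 and 831 CPM in siprdx1+H2O2 (-0.73 ± 0.08, adjusted p = 4.05e-06). Its H2O2 libraries reached 60.2% of the untreated mean. For mt-Cytb the values were 2161, 1979 and 2066 CPM and then 1549, 1301 and 1334 CPM (-0.57 ± 0.07, adjusted p = 5.12e-06). For mt-Nd1 they were 1449, 1319 and 1472 CPM and then 1063, 904 and 968 CPM (-0.53 ± 0.06, adjusted p = 5.8e-06). No H2O2 library reached the lowest untreated one for these 3 genes.

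The remaining complex I calls were mt-Nd2, from 855, 739 and 859 CPM to 668, 502 and 538 CPM (-0.52 ± 0.09, adjusted p = 0.000486), and mt-Nd4, from 685, 634 and 673 CPM to 535, 408 and 446 CPM (-0.52 ± 0.08, adjusted p = 0.000156). Both were again lower in every H2O2 library. In complex IV, mt-Co2 went from 34.2, 28.4 and 32.8 CPM to 27.2, 19.2 and 18.6 CPM (-0.56 ± 0.15, adjusted p = 0.0211), and its copy Gm28661 had -0.50 ± 0.15 (adjusted p = 0.0357). The mt-Co1 values, 6887, 5993 and 6760 CPM and then 6899, 5479 and 6006 CPM, overlapped (-0.10 ± 0.08, adjusted p = 0.551). The rRNAs had 0.01 for mt-Rnr1 and -0.29 for mt-Rnr2, and neither passed. The highest siprdx1+H2O2 library was replicate 1 for 12 of the 17 genes. Without single libraries, 5 to 7 genes passed as lower, and the mt-Co2 call was lost in 4 of 6 such fits. Fibroblast markers summed to 15020 to 15772 CPM in siprdx1 and 17270 to 18535 CPM in siprdx1+H2O2, with 3 of 6 tested higher, and 1 of 4 endothelial markers was higher. Their part in the result was not tested.

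The tRNA gene mt-Tw moved the other way. It was at 1.03, 1.18 and 1.13 CPM in siprdx1 and at 4.14, 1.95 and 2.77 CPM in siprdx1+H2O2, which rests on raw counts of 20, 28 and 18 against 83, 47 and 68. Its log2 difference was 1.38 ± 0.24 (adjusted p = 0.000629), and the groups did not overlap. It lay between 1.07 and 1.61 in fits without any single library and passed in each. The upstream gene mt-Nd2 fell in the same libraries. In siNC the mt-Tw levels were 1.60, 1.40 and 1.22 CPM and then 2.08, 2.01 and 1.86 CPM (0.49 ± 0.24, adjusted p = 0.244), which did not pass. The other tested tRNA, mt-Tt, had 0.47 ± 0.26 in siNC and 0.29 in siprdx1, and neither passed.

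**Figure D3:**
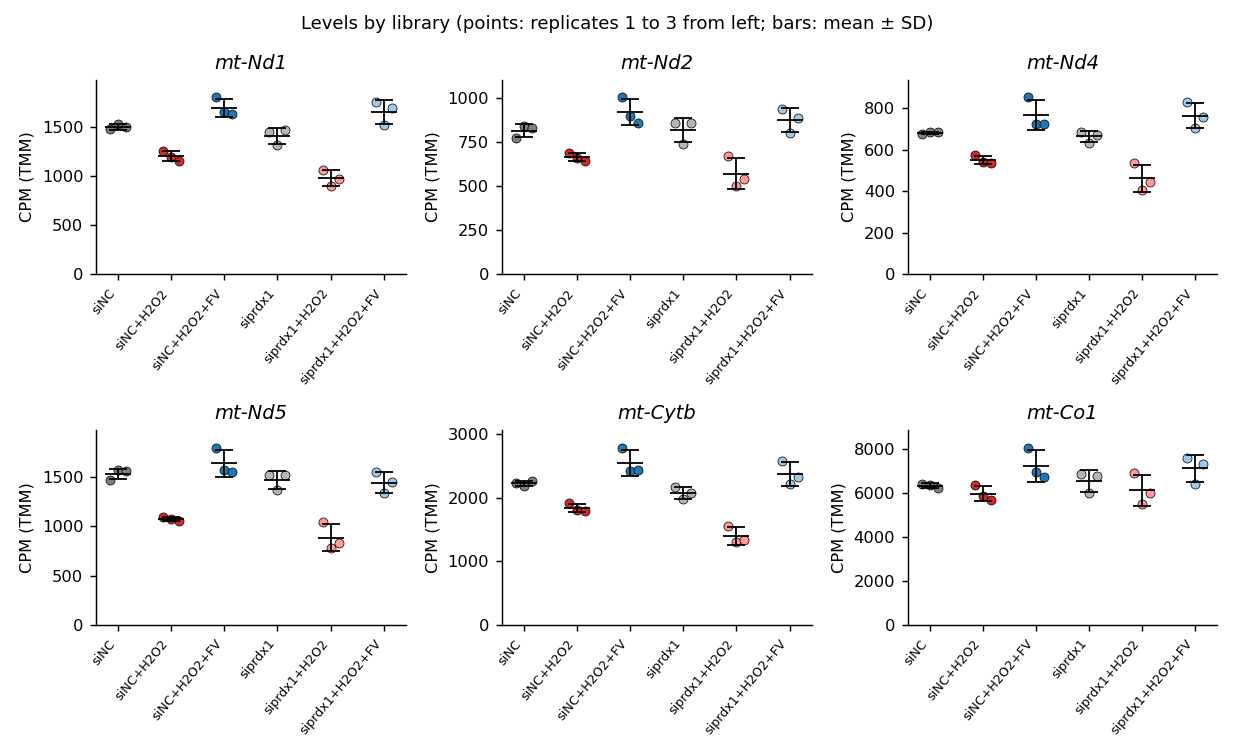
Levels of the 6 most abundant mitochondrial messages (CPM, TMM-scaled) in each library of the 6 groups, with bars for mean ± SD. For mt-Nd1, mt-Nd2, mt-Nd4, mt-Nd5 and mt-Cytb the H2O2 libraries lie below the untreated and FV libraries of the same siRNA, whereas the mt-Co1 ranges of untreated and H2O2 libraries overlap.

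Fluvastatin after H2O2 was compared with H2O2 alone. In siNC cells 9 of the 17 genes rose, and none fell, where 13.5% of all genes passed as higher and 11.3% as lower. The rises spanned all complexes: 5 of 7 complex I genes, mt-Cytb of complex III, mt-Co1 and mt-Co2 of complex IV, and mt-Atp6 of ATP synthase. The rRNAs and tRNAs did not pass. With library size alone as scaling, 6 of the 17 genes rose and none fell, and that scaling shifted the median of all genes by -0.10. This comparison uses the same siNC+H2O2 libraries as the H2O2 comparison above, so the directions of both are not independent.

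With FV, mt-Nd5 was at 1802, 1577 and 1554 CPM, or 0.61 ± 0.08 on the log2 scale above H2O2 alone (adjusted p = 8.48e-06). Levels of mt-Nd1 were 1803, 1652 and 1635 CPM (0.49 ± 0.06, adjusted p = 3.05e-06), and those of mt-Cytb were 2784, 2415 and 2435 CPM (0.47 ± 0.07, adjusted p = 1.29e-05). These FV libraries all lay above the H2O2 libraries. The values were 852, 725 and 723 CPM for mt-Nd4 (0.48 ± 0.08, adjusted p = 9.64e-05) and 1002, 896 and 859 CPM for mt-Nd2 (0.47 ± 0.09, adjusted p = 0.000365). In complex IV, mt-Co1 reached 8066, 6948 and 6717 CPM (0.28 ± 0.08, adjusted p = 0.0149), all above the H2O2 libraries. In siNC+H2O2+FV, replicate 1 was the highest library for 13 of the 17 genes.

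Smaller or less certain rises were those of mt-Co2, at 43.0, 32.4 and 32.8 CPM against 28.6, 26.5 and 25.5 CPM (0.42 ± 0.14, adjusted p = 0.035), and of mt-Atp6, at 11.2, 10.8 and 9.64 CPM against 8.26, 8.25 and 8.93 CPM (0.31 ± 0.11, adjusted p = 0.0405). The complex I gene mt-Nd3 was at 2.3, 2.95 and 1.61 CPM against 1.12, 1.22 and 1.42 CPM (0.85 ± 0.27, adjusted p = 0.0214), from 20 to 60 counts per library over the study. All 3 have near-identical nuclear copies. Of the 7 copies, 3 also rose: Gm28439 by 0.76 ± 0.21, Gm10925 by 0.52 ± 0.14 and Gm28661 by 0.42 ± 0.14. Without siNC+H2O2+FV replicate 1 the calls dropped to 5, namely mt-Nd1, mt-Nd2, mt-Nd4, mt-Nd5 and mt-Cytb, while mt-Co1 had 0.20 (adjusted p = 0.108), mt-Co2 0.29 (adjusted p = 0.19), mt-Atp6 0.27 (adjusted p = 0.135) and mt-Nd3 0.85 (adjusted p = 0.051). An offset for GC content and transcript length ended the calls of mt-Co2, mt-Atp6 and mt-Nd3, and DESeq2 and an unfiltered fit that of mt-Atp6; the tested members had a median GC content of 36%, against 49.5% for all tested genes.

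In siprdx1 cells 7 of the 17 genes rose with FV and none fell, beside 12.6% and 11.0% of all genes (7 higher and 1 lower with library size alone as scaling). The risen genes were mt-Nd1, mt-Nd2, mt-Nd4 and mt-Nd5 of complex I, mt-Cytb, mt-Co2 and mt-Atp6. The mt-Cytb libraries with FV were at 2582, 2221 and 2322 CPM, a rise of 0.77 ± 0.07 (adjusted p = 7.38e-09). For mt-Nd1 they were at 1758, 1521 and 1697 CPM (0.76 ± 0.06, adjusted p = 2.98e-09), and for mt-Nd5 at 1553, 1336 and 1450 CPM (0.71 ± 0.08, adjusted p = 1.08e-06). None of these overlapped the H2O2 libraries. The values for mt-Nd4 were 828, 707 and 757 CPM (0.72 ± 0.08, adjusted p = 3.31e-07) and for mt-Nd2 935, 799 and 885 CPM (0.62 ± 0.09, adjusted p = 1.44e-05).

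Of the copied genes, mt-Co2 rose by 0.74 ± 0.14 to 40.9, 31.6 and 35.2 CPM, and mt-Atp6 rose by 0.60 ± 0.11, from 8.08, 7.85 and 6.48 CPM to 10.6, 11.2 and 12.1 CPM. The catalytic subunit mt-Co1, at 7604, 6431 and 7337 CPM, had 0.22 ± 0.08 (adjusted p = 0.0597) and did not pass, and mt-Tw had -0.59 ± 0.22 (adjusted p = 0.063). The 7 calls numbered 7 or 8 without any single library. In both arms the FV comparison coincided with other shifts: summed Leydig markers went from 1266 to 1280 CPM with H2O2 to 1643 to 1687 CPM with FV in siNC, and smooth muscle markers from 1224 to 1311 CPM to 2170 to 2308 CPM. In siprdx1 the same sums went from 1107 to 1153 CPM to 1517 to 1549 CPM and from 1013 to 1139 CPM to 1841 to 2081 CPM. All 4 smooth muscle markers rose in both arms, and of 8 tested Leydig markers 2 rose and 3 fell in siNC and 3 rose and 1 fell in siprdx1. Of 16 macrophage markers 1 rose and 8 fell in siNC, where their sum was 10479 to 11198 CPM with H2O2 and 9314 to 9475 CPM with FV, while 2 rose and none fell in siprdx1, with 9106 to 9411 and 9491 to 9915 CPM. Of 6 tested fibroblast markers 1 fell in siNC and 2 fell in siprdx1. Of 4 tested Sertoli cell markers 1 rose in siNC, and 2 rose and 1 fell in siprdx1. Of 4 endothelial markers none passed in siNC and 1 fell in siprdx1. The part of these shifts in the mitochondrial values was not tested.

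**Figure D4:**
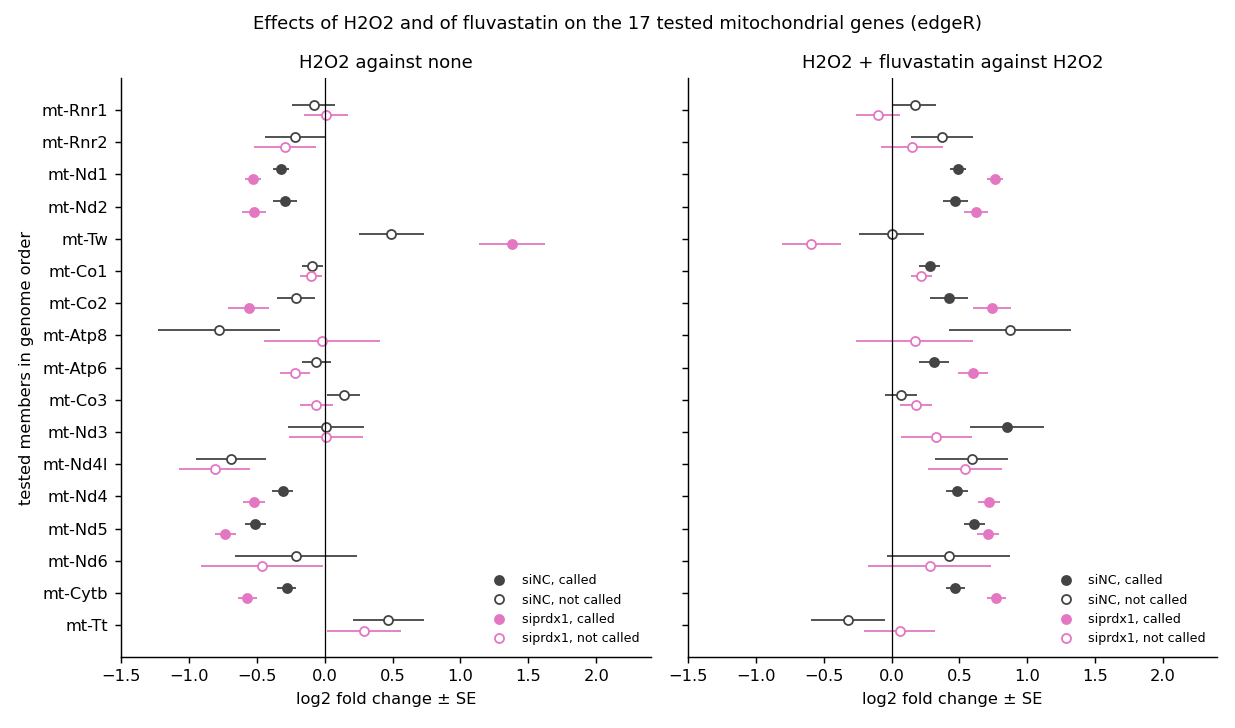
Log2 fold changes with SE of the tested mitochondrial genes for H2O2 against no H2O2 and for FV after H2O2 against H2O2 alone, in both siRNA arms, with filled points for adjusted p below 0.05 (edgeR). The genes mt-Nd1, mt-Nd2, mt-Nd4, mt-Nd5 and mt-Cytb lie below 0 for H2O2 and above 0 for FV, mt-Co1 lies at -0.09 and -0.10 for H2O2, and mt-Tw lies at 1.38 for H2O2 in siprdx1; the H2O2 and FV comparisons of an arm share the H2O2 libraries.

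The members whose counting is least certain, and that passed in no comparison, were mt-Co3, mt-Nd4l, mt-Nd6 and mt-Atp8. In siNC, mt-Co3 was at 15.7, 12.7 and 13.1 CPM untreated, 14.8, 15.9 and 15 CPM with H2O2 and 18.2, 15.2 and 14.6 CPM with FV. In siprdx1 it was at 16.4, 12.5 and 15.8, then 16.4, 13.4 and 12.8, then 16.2, 16.7 and 15.4 CPM. All these groups overlapped with their untreated group. The gene mt-Nd4l was at 2.01, 1.27 and 1.64 CPM in siNC, 0.787, 1.0 and 1.21 with H2O2 and 1.68, 1.62 and 1.28 with FV. In siprdx1 it was at 2.12, 1.27 and 1.63, then 0.848, 0.955 and 1.02, then 1.4, 1.56 and 1.12 CPM, so its H2O2 libraries were below the untreated ones in both arms, from 14 to 44 counts per library (-0.69 ± 0.26, adjusted p = 0.119, and -0.81 ± 0.26, adjusted p = 0.0633). For mt-Nd6 single libraries ranged from 6.88 to 28.1 CPM and for mt-Atp8 from 0.281 to 1.97 CPM, with overlap between the groups. The rRNAs also overlapped: mt-Rnr1 was at 115, 149 and 127 CPM in siNC, 120, 136 and 114 with H2O2 and 133, 167 and 116 with FV.

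Cells with both treatments were then set against untreated cells of the same siRNA. In siNC 2 of the 17 genes rose and none fell, beside 11.3% and 11.6% of all genes. They were mt-Cytb (0.19 ± 0.07, adjusted p = 0.0423) and mt-Nd3 (0.86 ± 0.26, adjusted p = 0.0186). The message mt-Nd5 had 0.10 (adjusted p = 0.45), with a mean of 1644 CPM against 1535 CPM untreated. In siprdx1 4 of the 17 genes rose and none fell, beside 12.7% and 12.9%. These were mt-Nd1 (0.23 ± 0.06, adjusted p = 0.00925), mt-Atp6 (0.38 ± 0.11, adjusted p = 0.013), mt-Tw (0.80 ± 0.26, adjusted p = 0.0252) and mt-Cytb (0.20 ± 0.07, adjusted p = 0.0339). Here mt-Nd5 was at -0.03 ± 0.08 (adjusted p = 0.855). The GC and length offset ended both calls in siNC (mt-Cytb at 0.09, mt-Nd3 at 0.64) and those of mt-Tw (0.66, adjusted p = 0.0591) and mt-Cytb (0.16, adjusted p = 0.0958) in siprdx1. Calls in siNC numbered 0 without siNC replicate 2 and 1 without siNC replicate 1 or 3 or siNC+H2O2+FV replicate 1 or 2, and in siprdx1 1 without siprdx1 replicate 2 or siprdx1+H2O2+FV replicate 1 and 2 without siprdx1 replicate 3. With library size alone as scaling 1 gene rose in siNC and 0 in siprdx1. That scaling shifted the median of all genes by -0.12 and -0.14. Of the cell type markers, smooth muscle genes were higher in 4 of 4 cases in siNC and 3 of 4 in siprdx1, macrophage genes in 1 and 3 of 16 with none lower, and of 8 tested Leydig genes 2 were higher and 1 lower in each arm. Of 6 tested fibroblast genes 1 was lower in each arm, and of 4 tested Sertoli cell genes 2 were higher and 1 lower in siNC and 1 and 1 in siprdx1. Their part in the result was not tested.

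For knockdown of Prdx1 without H2O2, 0 of the 17 genes passed by edgeR, beside 2.33% of all genes. None had an unadjusted p below 0.05, beside 1823 of all 16432 genes, and DESeq2 and limma voom also called 0. The smallest adjusted p was 0.646, for mt-Cytb, and the median over the 17 genes was 0.01. After H2O2, 2 genes were lower in siprdx1 than in siNC and none higher, beside 1.83% and 0.901%. They were mt-Cytb (-0.39 ± 0.07, adjusted p = 0.00136) and mt-Nd1 (-0.30 ± 0.06, adjusted p = 0.00978), and in both the 3 siprdx1 libraries lay below the 3 siNC libraries. The complex I gene mt-Nd5 had -0.28 ± 0.08 (adjusted p = 0.0837), mt-Nd4 -0.25 (adjusted p = 0.113) and mt-Nd2 -0.22 (adjusted p = 0.232), whereas mt-Co1 had 0.04 (adjusted p = 0.895). The number of lower genes was 1 without siNC+H2O2 replicate 1 or siprdx1+H2O2 replicate 3 and 5 without siprdx1+H2O2 replicate 1, and the mt-Cytb call held in each such fit. Macrophage markers summed to 10479 to 11198 CPM in siNC+H2O2 and 9106 to 9411 CPM in siprdx1+H2O2, with 3 of 16 lower. Leydig markers summed to 1266 to 1280 and 1107 to 1153 CPM, with 2 of 8 tested lower. Of 6 tested fibroblast markers 2 were higher and 1 lower, 1 of 4 smooth muscle markers was lower, and 1 of 4 tested Sertoli cell markers was higher. The part of these shifts in the result was not tested. After H2O2 and FV, 0 of the 17 genes passed by edgeR for the knockdown, beside 3.97% of all genes, and DESeq2 and limma voom also called 0. Of the 17 genes, 1 had an unadjusted p below 0.05, beside 2732 of all 16432 genes. The smallest adjusted p there was 0.255, for mt-Nd5.

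Whether the responses differed between the siRNA arms was tested directly as an interaction. By edgeR 0 of the 17 genes passed for H2O2, beside 0.243% of all genes, or for FV, beside 0.651%, and DESeq2 and limma voom also called 0. For each interaction 3 of the 17 genes had an unadjusted p below 0.05, beside 977 of all 16432 genes for H2O2 and 2112 for FV. The cytochrome b gene mt-Cytb had the smallest p in both, with -0.29 ± 0.10 (adjusted p = 0.434) for H2O2 and 0.29 ± 0.10 (adjusted p = 0.201) for FV. These interactions share both H2O2 groups. The steeper H2O2 decreases in siprdx1 than in siNC, such as -0.57 against -0.28 for mt-Cytb, were thus not shown to differ.

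Within the mitochondrial pool, mt-Co1 held a larger share after H2O2 and the complex I messages together a smaller one. The shares themselves were not tested. In the edgeR fit scaled to the mitochondrial total, given below, mt-Co1 had 0.12 after H2O2 in siNC (adjusted p = 0.22). It did not pass there, and of the complex I genes only mt-Nd5 did. In siprdx1 mt-Co1 passed as higher, and mt-Nd1, mt-Nd2, mt-Nd4 and mt-Nd5 as lower. The complex IV share is nearly all mt-Co1, since mt-Co2 held 0.23% of mitochondrial counts, and relative to the mitochondrial total mt-Co2 had -0.25 after H2O2 in siprdx1, which did not pass. Complex I messages made up 33.8% ± 0.677 of mitochondrial counts (mean ± SD, n = 3) in siNC and 30.1% ± 0.322 in siNC+H2O2, and complex IV messages 47.4% ± 0.868 and 51.6% ± 0.561. In siprdx1 the complex I share was 32.8% ± 0.293 and 27% ± 0.357, and the complex IV share 49.2% ± 0.46 and 57.2% ± 0.375. With FV, complex I stood at 33.1% ± 0.398 in siNC and 32.6% ± 0.273 in siprdx1, and complex IV at 47.8% ± 0.602 and 49.1% ± 0.595. The complex III share was 16.5%, 15.7% and 16.7% across the siNC groups and 15.5%, 13% and 16.2% across the siprdx1 groups, in the order untreated, H2O2, and H2O2 with FV.

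The ratio of mt-Nd5 to mt-Co1 counts, which needs no scaling between libraries, was lower after H2O2. It was 22.9%, 24.6% and 25.1% in siNC, 17.3%, 18.3% and 18.5% in siNC+H2O2, and 22.3%, 22.7% and 23.1% in siNC+H2O2+FV. In siprdx1 it was 22.2%, 22.9% and 22.5%, then 15.1%, 14.3% and 13.8%, then 20.4%, 20.8% and 19.8%. All 6 libraries with H2O2 alone lay below the other 12, which were untreated or had both H2O2 and FV. The ratio of mt-Nd1 to mt-Co1 was 19.9%, 20.4% and 20.3% in siNC+H2O2 and 15.4%, 16.5% and 16.1% in siprdx1+H2O2, again below the other 12 libraries. The ratio of mt-Cytb to mt-Co1 was 30.1%, 30.7% and 31.4% in siNC+H2O2, overlapping the 31.4%, 33% and 30.6% of siprdx1, and 22.5%, 23.8% and 22.2% in siprdx1+H2O2. The ratio of the rRNA mt-Rnr2 to mt-Co1 overlapped between untreated and H2O2 libraries, at 2.28%, 3.52% and 2.62% against 2.37%, 2.96% and 2.34% in siNC, and in siprdx1 at 2.64%, 2.43% and 3.04% against 2.49%, 2.11% and 2.47%. The first 3 ratios were taken for genes that fell, so their direction is no separate evidence.

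**Figure D5:**
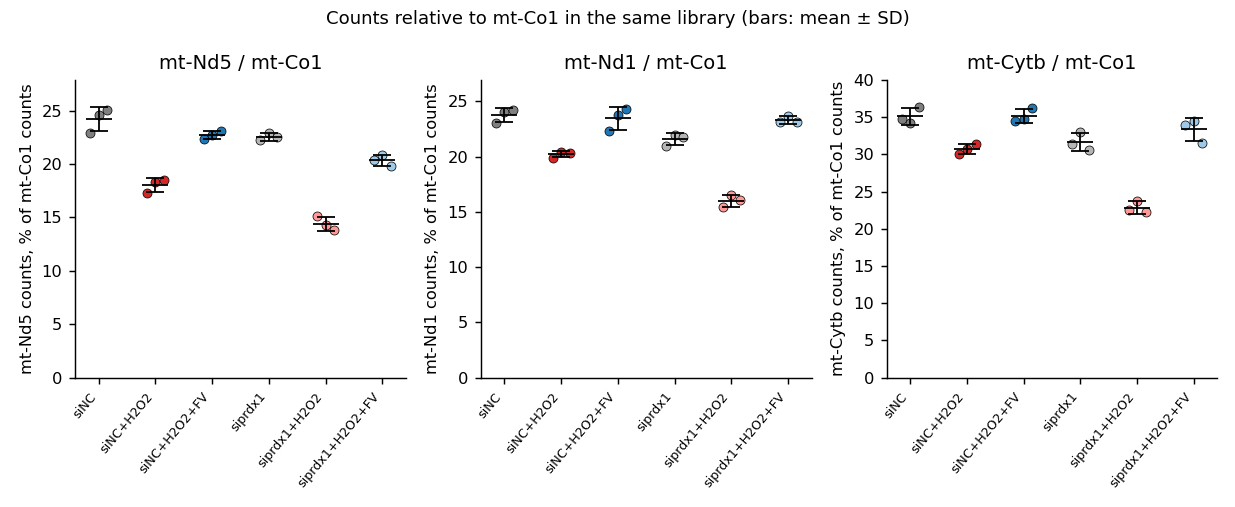
Counts of mt-Nd5, mt-Nd1 and mt-Cytb as a percent of mt-Co1 counts in each library, with bars for mean ± SD. Ratios of mt-Nd5 and mt-Nd1 are lowest in the 6 libraries with H2O2 alone, down to 13.8% for mt-Nd5 in siprdx1+H2O2.

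A fit scaled to the mitochondrial total, in place of all genes, gave the changes relative to the sum of all members and split the calls differently. Each member is itself part of that sum, and mt-Co1 averaged 50% of it. For H2O2 in siNC 2 genes were higher and 1 lower, in place of 0 and 5: mt-Tw (0.71 ± 0.22) and mt-Co3 (0.35 ± 0.12) were higher and mt-Nd5 (-0.30 ± 0.07) lower. For H2O2 in siprdx1 the split was 3 and 5 in place of 1 and 6, with mt-Tw (1.67 ± 0.22), mt-Rnr1 (0.33 ± 0.13) and mt-Co1 (0.22 ± 0.07) higher and mt-Nd5 (-0.42), mt-Cytb (-0.25), mt-Nd1, mt-Nd2 and mt-Nd4 (each -0.21) lower. For FV in siNC it was 1 and 2 in place of 9 and 0, with mt-Nd5 (0.22 ± 0.07) higher and mt-Co3 (-0.32 ± 0.12) and mt-Tt (-0.70 ± 0.26) lower. For FV in siprdx1 it was 6 and 3 in place of 7 and 0: mt-Nd1, mt-Nd2, mt-Nd4, mt-Nd5, mt-Cytb and mt-Co2 were higher by 0.18 to 0.33, and mt-Tw (-1.01 ± 0.20), mt-Rnr1 (-0.54 ± 0.13) and mt-Co1 (-0.22) lower. The FV rises of mt-Co1 and mt-Atp6 in siNC turned to -0.11 (adjusted p = 0.204) and -0.08 (adjusted p = 0.616) on this scale. The median over all tested genes shifted by 0.21 for H2O2 and -0.38 for FV in siNC, and by 0.32 and -0.45 in siprdx1. The shares of all genes given above therefore do not apply to these counts, and the shares on this scale are not given here.

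The nuclear-encoded machinery of mitochondrial gene expression was described from lists of known genes. The transcription list also holds Twnk and Mgme1, which act in DNA replication and stand in the DNA maintenance list too. With H2O2 in siNC, none of the 12 genes of the transcription list, 27 of RNA processing and stability or 15 of DNA maintenance passed. With H2O2 in siprdx1, none of the transcription list passed, 2 RNA genes were higher (Rexo2 at 0.19, Grsf1 at 0.20) and 1 lower (Trub2 at -0.25), and 1 DNA maintenance gene was higher (Mpv17 at 0.27) and 1 lower (Ssbp1 at -0.28). In siNC, Polrmt had -0.19 ± 0.13 after H2O2 (adjusted p = 0.417). In the same comparison Tfam, which packages mitochondrial DNA, had 0.15 ± 0.08 (adjusted p = 0.305). Lrpprc, which stabilizes mitochondrial messages, had -0.02 ± 0.08 there (adjusted p = 0.905). The nuclear-encoded subunits of the same complexes went up where they passed after H2O2 in siNC. For complex I 2 of 23 were higher, for complex III 2 of 9, for complex IV 3 of 10 and for ATP synthase 4 of 15. None was lower, beside 2.36% of all genes higher and 4.59% lower. The list medians in siNC were 0.16, 0.20, 0.16 and 0.20, against 0.01 for all genes. Higher subunits included Ndufb5 (0.31 ± 0.07) and Ndufs4 (0.24) of complex I, Uqcrh (0.26) of complex III and Cox5a (0.24) of complex IV. Those of ATP synthase included Atp5h (0.28) and Atp5pb (0.24). In siprdx1 1, 0, 1 and 1 of these subunits were higher after H2O2 and none lower, beside 2.48% and 5.39% of all genes.

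With FV in siNC, 1 of the 12 genes of the transcription list was higher and 5 lower. The elongation factor Tefm fell by 0.56 (adjusted p = 0.00235), the DNA helicase Twnk by 0.45 and Mterf2 by 0.81, while Mterf3 rose by 0.57. Of the 27 RNA factors 2 were higher and 6 lower, the latter including Rpusd4 (-0.67), Ptcd1 (-0.63) and Ptcd2 (-0.58), and Tbrg4 was higher (0.35). Of 15 DNA maintenance genes 1 was higher and 2 lower, with Polg, the mitochondrial DNA polymerase, higher by 0.47. Of 13 mitochondrial chaperones and proteases 1 was higher and 3 lower. Of 12 regulators of mitochondrial biogenesis 4 rose, namely the coactivator Pprc1 (0.87 ± 0.07, adjusted p = 1.47e-09), the deacetylase Sirt1 (0.77 ± 0.11), Gabpb1 (0.51) and Nfe2l2 (0.29), and none fell. These shares stand beside 13.5% of all genes higher and 11.3% lower. Polrmt (-0.19), Tfam (-0.10) and Lrpprc (0.08) did not pass.

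In siprdx1 with FV the counts were 1 higher and 4 lower of the 12 transcription genes and 2 and 5 of 27 RNA genes. They were 2 and 2 of 15 DNA maintenance genes, 0 and 1 of 13 chaperones and proteases, and 4 and 0 of 12 regulators. These stand beside 12.6% of all genes higher and 11.0% lower. The same named genes passed there: Tefm at -0.65, Mterf2 at -0.68, Twnk at -0.32, Mterf3 at 0.35, Ptcd1 at -0.45, Ptcd2 at -0.46, Rpusd4 at -0.40, Tbrg4 at 0.50, Polg at 0.41, Pprc1 at 0.79, Sirt1 at 0.82, Gabpb1 at 0.56 and Nfe2l2 at 0.34. Nuclear-encoded subunits rarely passed with FV, with 3 lower in siNC (2 of complex I and 1 of ATP synthase) and 1 lower and 2 higher in siprdx1. After both treatments Polrmt was lower than in untreated cells, at -0.38 in siNC (adjusted p = 0.0331) and -0.39 in siprdx1 (adjusted p = 0.0309). For knockdown without H2O2, the only calls in these lists were the mitochondrial chaperones Hspa9 (0.26, adjusted p = 0.0217) and Dnaja3 (0.24, adjusted p = 0.0361).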

How the data were processed

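Poly(A) RNA of 18 cultures was sequenced with a stranded kit as 150-base paired ends, per the labels' protocols. Values are the raw counts of reads per gene that the authors deposited in 1 table. The submitters' processing notes name HISAT2, HTSeq and mm10, without versions; the annotation, the strand setting and the handling of reads with several matches are not given in the sources used here. Column names and labels gave each library its group. Totals ranged from 15201530 to 23898435 counts, so a gene with few counts is known only coarsely.

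From the counts, CPM was computed with TMM scaling, and genes were tested with edgeR 4.0.16 in R 4.3.3. After filterByExpr, 16432 genes remained. The robust glmQLFit model had 1 mean per group over the 18 libraries, which left 12 residual degrees of freedom. Rises, falls and passing refer to p below 0.05 after Benjamini-Hochberg adjustment over all tested genes, and SE is the log2 fold change over the root of F. No gene list was tested as a set. Statements that groups did not overlap rest on the same libraries as the test and are no separate evidence. The share of all tested genes without overlap is not given here. The members and the lists were chosen with earlier results of these data known. All mt- genes are accounted for, and values are given for members that passed in a comparison or whose counting is uncertain. For each list of nuclear genes at most the 4 genes with the smallest p among those that passed are named, besides Polrmt, Tfam and Lrpprc. Nuclear copies were found with blastn 2.17.0 between members and the GENCODE M21 transcripts of GRCm38, at 90% identity or more over at least 50 bases, and called near-identical at 99% or more. Copies outside annotated genes were not searched. Figures were drawn with matplotlib 3.10.9.

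The labels number replicates 1 to 3 in each group without tying a number to an animal or day. Deviations of libraries with the same number had each correlation over 0.1 only for H2O2 in siNC (0.135, 0.135 and 0.118). Single values elsewhere were larger, as for H2O2 in siprdx1 (0.178, 0.256 and -0.006). Whether libraries of a number are paired is therefore not known for any comparison, and the main fit used no pairing. The chi-square between replicate pairs was 2.64 to 15.8 per degree of freedom, above counting noise in every pair, so no pair was treated as 1 library. Alternatives were RLE size factors, library size alone, the mitochondrial total as library size, no filter, an offset for GC content and length, the replicate block with and without that offset, only the groups compared, DESeq2 1.42.0, limma voom (limma 3.58.1), and each library left out in turn. Summing the counts of members and nuclear copies was added after the data were seen. The fit was tested on simulated data.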

Additional observations from a re-analysis of the deposited data

How the results depend on the processing

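Of 36 called values of members, 36 passed in the same direction with limma voom, with only the groups compared and with the replicate block, 35 with RLE size factors, DESeq2, no filter and member and copy counts summed (chosen after seeing the data), 31 with the replicate block and GC and length offset, 29 with that offset alone, 28 with library size alone and 15 with the mitochondrial total as library size. On the last scale the FV rises in siNC of mt-Co1 (-0.11) and mt-Atp6 (-0.08) reversed. That scale also gave 2 genes higher and 1 lower for H2O2 in siNC, 1 and 2 for FV in siNC, 0 higher for H2O2 with FV in siNC, 3 higher for H2O2 in siprdx1, 3 lower for FV in siprdx1, 1 higher for H2O2 with FV in siprdx1, and 0 lower for knockdown after H2O2. Library size alone gave 6 higher for FV in siNC and 1 lower for FV in siprdx1. For H2O2 with FV it gave 1 higher in siNC and 0 in siprdx1. Without the filter, 6 genes were higher for H2O2 with FV in siNC, 6 lower for knockdown after H2O2, 2 lower for knockdown after both treatments, 1 lower for the H2O2 interaction and 2 higher for the FV interaction. The GC and length offset gave 0 higher for H2O2 with FV in siNC, 1 lower for FV in siprdx1 and 4 lower for knockdown after H2O2. The cause of these changes was not tested. For all alternative fits, here and above, the shares of all genes called are not given. The shares of the main fit do not apply to their counts.

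With the replicate block, 5 genes were lower for H2O2 in siNC, where it changed no call. In other comparisons the replicate block gave 5 higher for H2O2 with FV in siNC, 1 lower for FV in siprdx1, 5 lower for knockdown after H2O2 and 1 higher for the FV interaction. The replicate block with the GC and length offset gave 1, 1 and 4 for the first 3 of these.

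Leaving out each library in turn gave 2 to 5 genes lower for H2O2 in siNC, 5 to 9 higher for FV in siNC, 0 to 3 higher for H2O2 with FV in siNC, 0 to 1 lower for FV in siprdx1, 1 to 5 higher for H2O2 with FV in siprdx1, and 0 to 1 higher and 1 to 5 lower for knockdown after H2O2. The mitochondrial share in siNC, 1.38%, was 1.35% with the effective library size as denominator, which ended its overlap with siNC after H2O2 and FV, and 1.35% without rRNA and tRNA genes. Genes with few counts, such as mt-Nd3, mt-Nd4l, mt-Atp8 and the tRNAs, are known only coarsely. Why their counts were few was not tested.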
